A study of Mus musculus with 50 samples.

Results

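N6-methyladenosine (m6A) peaks in the middle of the coding sequence and close to a consensus motif were described in mouse B cells that had been stimulated overnight with LPS, a bacterial lipid that makes B cells divide. A peak was a member when the authors' table placed it in the coding sequence, between positions 501 and 2000 of its transcript, with the motif at most 50 nt away. This rule used position and motif distance and no score. It took 5127 of the 32009 peaks (16.0%), on 3494 of the 14219 transcripts with a peak (24.6%), out of 11623 coding-sequence peaks in all. The data came from 12 of the 50 samples, which were m6A-seq libraries in 4 groups of 3. Each genotype had libraries of RNA immunoprecipitated for m6A (IP) and of the starting RNA (Input). One genotype was AIDcre Mettl3-flox/+ and the other AIDcre Mettl3-flox/flox. All 12 libraries thus came from cells with AIDcre, a Cre recombinase made where the gene for the enzyme AID is switched on, which in B cells follows activation. The extent of METTL3 loss in flox/flox cells at harvest was not analysed here. The strain labels of these libraries count upward from one library to the next and were not used. The other 38 samples were expression libraries and were not analysed here.

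The m6A mark is a methyl group on an adenosine inside a messenger RNA. METTL3, with its partner METTL14, writes most of it while the RNA is being made, at adenosines in a short motif known as DRACH. Much m6A lies in long internal exons and around stop codons, and little lies near splice junctions. Proteins that read the mark include YTHDF2, which speeds the decay of marked messages, and the IGF2BP family, which can stabilise them. Within the coding sequence the mark lies in the path of translating ribosomes.

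The authors scored every peak once per arm, with replicates pooled, in an arm headed test and an arm headed control. Scores come in 2 versions, each with its difference between arms and a p-value, read here as unadjusted. The table names no genotype for the arms. Their reading here, test arm as flox/+ and the other, called the comparator, as flox/flox, rests on the authors' shorter list of METTL3-dependent peaks, whose members score higher in the test arm. No value per library was used, so a spread between replicates cannot be given for a peak, and the depth of the libraries is unknown. Peak positions are taken as mouse build mm9, and the transcript identifiers are not paired with genes in the files, so peaks are described by position and class. No sequence is shown because the genome used here is GRCm38.

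Mid coding-sequence peaks near the motif scored higher in the test arm more often than in the comparator arm, and so did the peaks of the table at large. On the first score version the test arm had a median of 2.05 (quartiles 1.44 to 2.78) and the comparator arm one of 1.80 (1.17 to 2.48), and the median difference per peak was 0.25 (95% interval 0.22 to 0.27; quartiles -0.19 to 0.78). The second version gave 3.58 and 2.81, with a median difference of 0.56 (0.54 to 0.59; quartiles 0.07 to 1.05). The test arm was the higher one in 3341 members by first-version score (65.2%) and in 3978 by second-version score (77.6%). Over all 32009 peaks of the table the test arm was the higher one in 61.7% by first-version score. By second-version score it was the higher one in 22405 peaks (69.996%). The median differences over all peaks were 0.25 and 0.49. A higher test arm was thus shared by the whole table. The members lay above this background in share on both versions, but in median difference on the second version alone. The middle of the members' distribution lay above 0 on both versions. Their lower quartile lay below 0 on the first version and just above 0 on the second. Intervals of medians come from the order of the values, intervals of shares are exact binomial ones, and both cover counting error over peaks only, since several peaks can lie on one transcript.

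**Figure D1:**
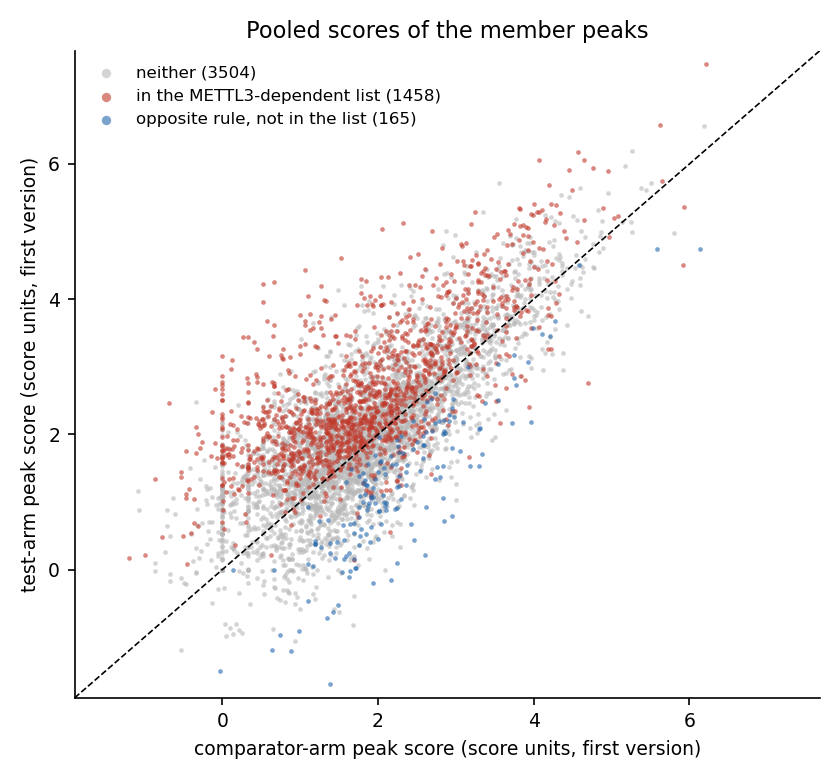
First-version peak score of each of the 5127 members in the comparator arm (x axis) and the test arm (y axis), in score units, with 1 point per peak and a dashed line where the arms are equal. Red points are the 1458 listed members, blue points the 165 that met the opposite rule and were not listed, and the cloud lies more above the line than below it.

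The authors' list of METTL3-dependent peaks held 1458 of the 5127 members (28.4%, 27.2% to 29.7%). Over all peaks of the table the listed share was 28.1%, so the members' share lay near the background. Each of the 5127 members was listed where its unadjusted p was under 0.1 and its test arm higher, both on whichever version, and not otherwise. The mirror rule for a lower test arm, called the opposite rule, was met by 388 members (7.57%, 6.86% to 8.33%), against 10.7% of all peaks. Because p and direction may come from different versions, 223 listed members (15.3%) met both rules. With p and direction taken from the same version, 1405 members had a higher test arm (27.4%; 26.7% of all peaks) and 233 a lower one (4.54%; 8.59% of all peaks). With p under 0.1 and one direction on both versions, 349 members were higher in the test arm (6.81%; 8.73% of all peaks) and 22 lower (0.429%; 1.37% of all peaks). Under that strictest form the members were called less often than all peaks in both directions.

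None of the members passed correction for multiple testing. After Benjamini-Hochberg adjustment of the authors' p-values over all peaks, 0 of 5102 members with a first-version p and 0 of 5127 with a second-version p were under 0.05, as were 0% of all peaks on both versions. The smallest adjusted p of a member was 0.351 by first-version and 0.219 by second-version p. An unadjusted p under 0.05 was held by 414 members on the first version (8.11%; 11.5% of all peaks) and by 675 on the second (13.2%; 14.9% of all peaks). Membership of the list is used below as the authors' label and is not a call that passed correction for any single peak.

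The score versions carried unequal weight in the list. Of the 1458 listed members, 778 (53.4%) had a p under 0.1 on the second version alone, 316 (21.7%) on the first alone and 364 on both. The first-version difference was at or below 0 in 198 listed members (13.6%), and the second-version difference in 25 (1.71%). Across all members the versions gave differences of opposite sign for 1293 peaks (25.2%; 22.6% of all peaks). Pearson's r between the versions' differences was 0.66 over the 5127 members, which share their libraries, and 0.72 over all peaks. On the first version, the test and comparator scores of a member correlated with Pearson's r of 0.74, and on the second with 0.85.

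Exact repeats of low scores gave some information on the scale. A comparator score of 0.33 was shared by 48 members, a score of 0.53 by 24, a score of 0.67 by 24 and a score of 0.77 by 14. Multiplied by 3 and taken as a power of 2, these values come to 2, 3, 4 and 5, as a mean over 3 replicates of log2 values of whole numbers would. Such a mean cannot lie below 0, whereas member scores went down to -1.70 for test and -1.19 for comparator. It therefore cannot describe every score. Differences are left in score units, since the score formula is unknown here. A first-version score of exactly 0 stood in both arms for 25 members, in the comparator arm alone for 92 and in the test arm alone for 7. Over all peaks of the table these counts were 137, 480 and 53, so the imbalance between arms was not particular to members. The 92 members at 0 in the comparator alone had a median test score of 1.23. Of them 25 were listed (27.2%), against 31.25% of all such peaks. Members at 0 in both arms had no first-version p, had no call in any replicate and were not listed. Among the 5003 members with no arm at 0 the median first-version difference was 0.24 and 28.6% were listed.

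The table also counts, for each arm, in how many replicates a peak was called, read here from values that run from 0 to 3. Most members were called in few replicates. A call in at least 2 test replicates was recorded for 1149 members (22.4%, 21.3% to 23.6%), against 29.4% of all peaks. In the comparator arm 760 members had such a call (14.8%, 13.9% to 15.8%), against 24.1% of all peaks. There was no call in any replicate for 997 members (19.4%; 15.9% of all peaks), and a call in each of the 6 replicates for 194 (3.78%; 9.58% of all peaks). The members were thus, as a set, called in fewer replicates than the peaks of the table at large.

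Calls confined to the replicates of 1 arm were more often in the test arm. A call in each test replicate and none in the comparator arm was recorded for 80 members (1.56%; 1.95% of all peaks), and the reverse for 14 (0.273%; 0.918% of all peaks). The 80 had median first-version scores of 2.71 (test) and 1.69 (comparator), and 58 of them were listed (72.5%). The 14 had medians of 1.87 and 2.49 with a median difference of -0.50 on the first version but 0.22 on the second, and 4 were listed. The 194 members called in each of the 6 replicates had medians of 3.37 and 3.19, median differences of 0.12 (first version) and 0.51 (second), and 83 of them were listed (42.8%). More test than comparator replicates had a call for 2051 of the 5127 members and 12155 of the 32009 peaks (37.97%), and the reverse held for 1475 members (28.8%) and 29.3% of all peaks, so the members' shares lay near the background. List and calls come from the same libraries, so their overlap gives the list no independent support.

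**Figure D2:**
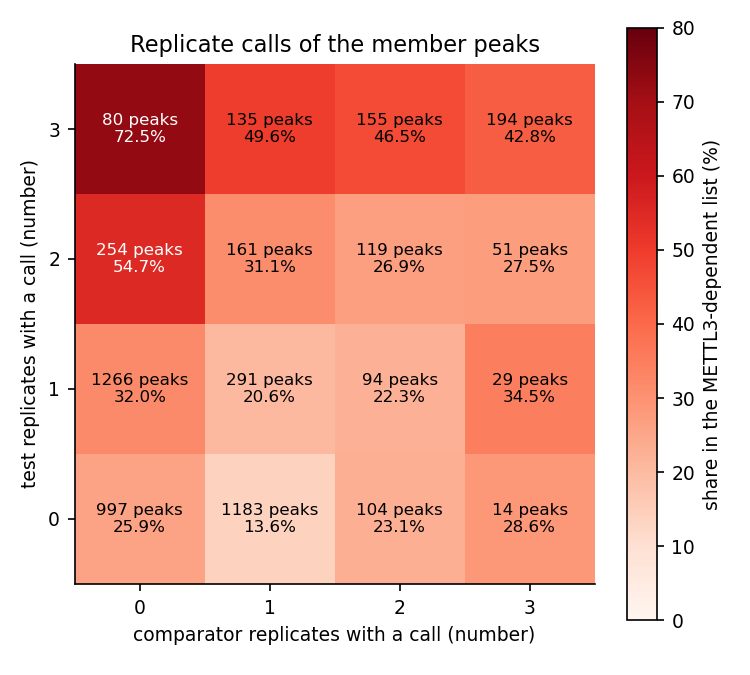
Number of member peaks and share in the METTL3-dependent list for each combination of replicates with a call in the test arm (y axis, 0 to 3) and the comparator arm (x axis, 0 to 3), with darker red for a higher share. The highest share, 72.5%, stands at 3 test and 0 comparator replicates, and the lowest, 13.6%, at 0 test and 1 comparator replicate.

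Members with low scores were more often without a call. Ranked by the mean first-version score of both arms and cut into 4 groups of equal size, the weakest group had 516 of 1282 members with no call (40.2%), and the strongest had 108 of 1282 (8.42%). The listed share was 18.6% in the weakest group, 28.2% and 32.2% in the middle groups and 34.7% in the strongest. From the weakest group to the strongest, the median first-version difference was 0.23, 0.22, 0.20 and 0.34. The spread of the differences was widest in the weakest group, with interquartile ranges of 1.20, 0.96, 0.81 and 0.90. The second-version median was 0.44, 0.60, 0.62 and 0.55 in the same order. On neither version did the median difference increase at each step as the listed share did. The groups are set by the scores that also give the difference, so these values are a description.

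Inside the window of 50 nt that the rule set, members were denser near the motif than at its edges. At a distance of 0 nt there were 170 members, whereas 10 positions at the upper end of the window, 41 to 50 nt, held 179 and the matching 10 at -41 to -50 nt held 197. The median distance without sign was 12 nt (quartiles 4 to 25). Negative and positive distances were nearly balanced, with 2427 and 2530 members, and their listed shares were 27.8% (26.0% to 29.6%) and 28.4% (26.7% to 30.2%). Median first-version differences were 0.24 and 0.26 on the 2 sides. Which sign stands for upstream is not stated in the file headers.

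The listed share went down with distance from the motif inside the window. It was 33.6% (31.2% to 36.0%) among the 1493 members within 5 nt, 30.7% at 6 to 10 nt, 27.7% at 11 to 20 nt and 25.1% at 21 to 30 nt. Among members at 31 to 40 nt it was 20.5% (17.1% to 24.3%), and at 41 to 50 nt 22.1% (18.0% to 26.6%). The closest members, within 5 nt, exceeded those at 31 to 50 nt by 12.4 percentage points (Newcombe 95% interval 8.71 to 15.9). Scores followed the same course in both arms. From the closest band to the farthest, the median first-version score went from 2.18 to 1.85 for test and from 1.91 to 1.73 in the comparator arm. The median difference went from 0.29 (0.25 to 0.33) to 0.18 (0.05 to 0.30) on the first version and from 0.61 (0.59 to 0.66) to 0.47 (0.32 to 0.57) on the second. The lower listed share far from the motif was not particular to members. For coding-sequence peaks near the motif but before the members' positions, it was 33.2% in the closest band and 22.3% in the farthest. For those past the members' positions it was 35.3% and 19.0%.

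Calls in replicates also became fewer with distance. A call in at least 2 test replicates was found for 31.4% of members within 5 nt of the motif and for 11.2% of those at 41 to 50 nt. In the comparator arm these shares were 20.4% and 6.91%. The opposite rule was met by 11.2% of the members at 0 nt, which are part of the closest band. From the closest band to the farthest its share was 8.37%, 7.88%, 7.09%, 7.57%, 6.01% and 7.18%, without a steady course. Coding-sequence peaks near the motif but outside the members' positions went the other way. Both before and past those positions, the opposite share was higher in the farthest band than in the closest. Whether the opposite share depends on distance was not tested. Strength moves with distance as well: the median distance was 15 nt in the weakest of the 4 groups by score and 10 nt in the strongest, and its part in the listed share was not tested.

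**Figure D3:**
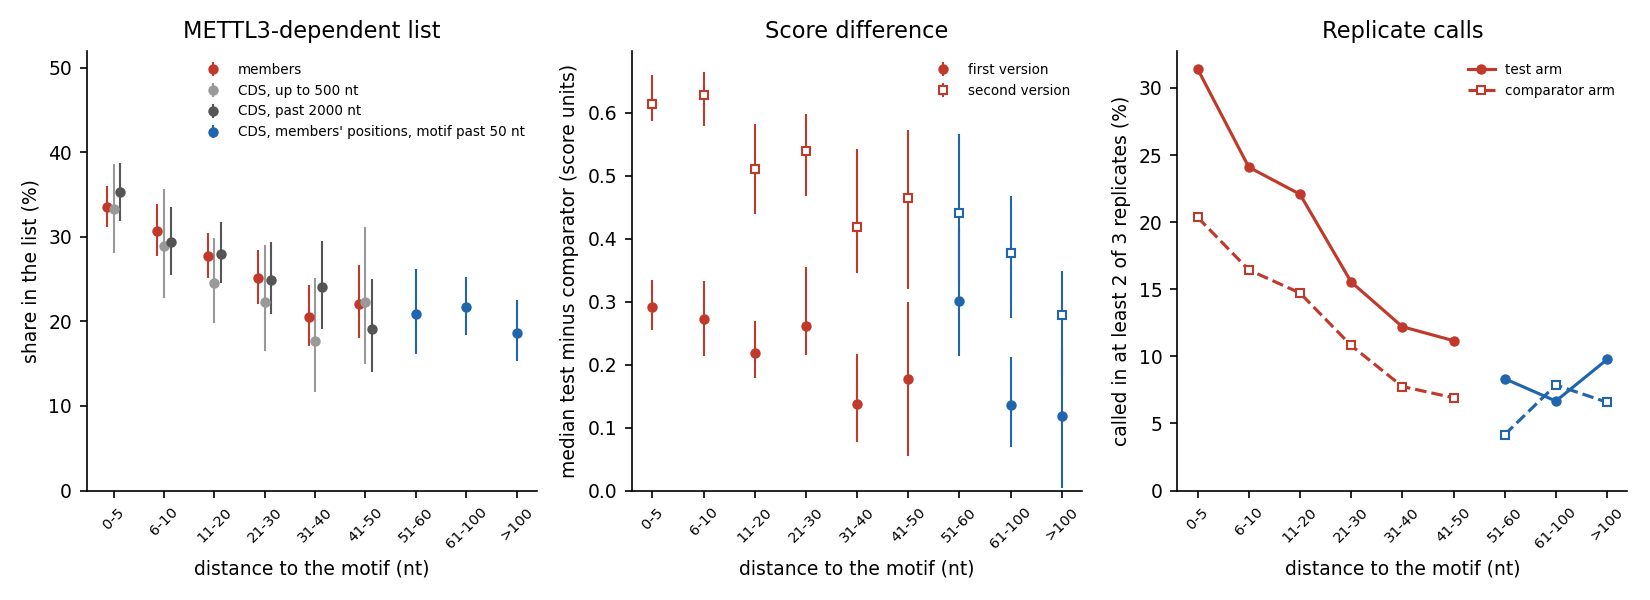
Panels against distance to the motif in nt: share in the METTL3-dependent list (%), median test minus comparator difference (score units, filled for the first and open for the second version) and share called in at least 2 of 3 replicates (%, filled for the test and open for the comparator arm), with 95% intervals as bars in the first 2 panels. Members are red, coding-sequence peaks up to 500 nt light grey, those past 2000 nt dark grey and those at the members' positions with the motif past 50 nt blue, the greys in the first panel only, and the listed share of members goes from 33.6% to 22.1% over the window.

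Listed shares were similar over the 3 parts of 500 nt within the window. The share was 28.8% (26.9% to 30.7%) for the 2280 members at 501 to 1000 nt, 28.8% for the 1704 at 1001 to 1500 nt and 27.2% (24.6% to 29.9%) for the 1143 at 1501 to 2000 nt. The nearer part exceeded the farther by 1.56 percentage points, with an interval from -1.66 to 4.70 that spans 0. In 6 steps of equal width, from the start of the window to its end, the share was 30.4% (27.8% to 33.1%), 26.96%, 30.5%, 26.8%, 30.2% and 23.7% (20.1% to 27.5%), with no steady course, and the intervals of the first and the last step did not overlap. Median first-version differences were 0.24, 0.26 and 0.24 in these parts, and second-version differences 0.55, 0.59 and 0.57. The second-version score rose along the window in both arms, from 3.45 to 3.70 in the test arm and from 2.71 to 2.93 in the comparator arm, whereas the first-version score was 2.04 and 2.08 in the test arm at the same ends.

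Peaks just inside and just outside the rule had overlapping 95% intervals at each of the 3 edges, both for the listed share and for the median first-version difference. Among coding-sequence peaks near the motif, 105 lay at 481 to 500 nt, with 34.3% listed and a median first-version difference of 0.33, and 118 at 501 to 520 nt, with 28.8% and 0.08. At 1981 to 2000 nt there were 31 peaks, with 25.8% listed and a median of 0.39, and at 2001 to 2020 nt 40, of which 10 were listed, with a median of 0.00. At 49 to 50 nt from the motif 52 peaks had 19.2% listed and a median of 0.10, and at 51 to 52 nt 48 peaks had 20.8% and 0.41.

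Other coding-sequence peaks gave a frame for these values. The 2811 peaks past 2000 nt and near the motif had 28.7% listed (27.1% to 30.5%) and a median first-version difference of 0.31. The 1266 peaks up to 500 nt and near the motif had 26.2% listed (23.8% to 28.7%) and a median of 0.19, and 11.2% of them met the opposite rule. The 1320 peaks at the same positions as the members but with the motif past 50 nt had 20.5% listed (18.3% to 22.7%), a median of 0.17 and a call in at least 2 test replicates in 8.11%. Members exceeded these far peaks in listed share in each part of the window: 28.8% against 21.1% at 501 to 1000 nt, 28.8% against 21.2% at 1001 to 1500 nt and 27.2% against 18.0% at 1501 to 2000 nt. Within the motif window, members at 41 to 50 nt (22.1%) were close to far peaks at 51 to 60 nt (20.8%, 16.1% to 26.2%). No test of these differences was made, since peaks of a pooled contrast are not replicates.

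Many transcripts carried more than 1 member. There were 2415 transcripts with 1 member (69.1%) and 1079 with at least 2 (30.9%), which together held 2712 members. A transcript held at most 7, and 5 transcripts did so, with 11 of their 35 members listed and between 0 and 4 on each. Of the 1079 transcripts, 118 had every member listed (10.9%), 393 had some (36.4%) and 568 had none (52.6%). Over all 3494 transcripts, 1217 had a listed member (34.8%). The listed share of members was 29.2% on transcripts with 1 member, 29.0% with 2 and 26.8% with 3.

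Neighbouring members of a transcript resembled each other more the closer they lay. For the 372 neighbouring pairs less than 100 nt apart, the first-version differences lay a median of 0.17 score units apart and had the same sign in 84.4%. For the 453 pairs at 100 to 199 nt these values were 0.29 and 81.5%, for the 436 pairs at 200 to 399 nt 0.43 and 71.3%, and for the 372 pairs 400 nt or more apart 0.45 and 62.9%. Pearson's r between neighbours' differences was 0.89, 0.75, 0.53 and 0.39 over the same bands. The pairs share a transcript and libraries, and close peaks may share RNA fragments, whose part was not tested. Both members of a pair were listed in 14.8% of the closest and in 10.5% of the most widely spaced pairs.

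**Figure D4:**
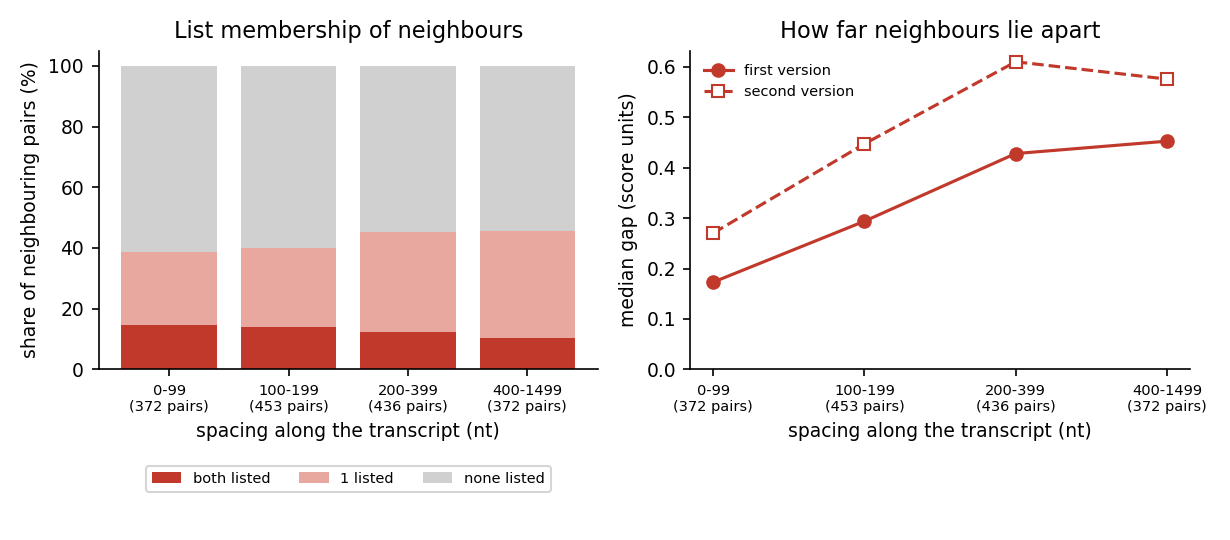
Neighbouring members of the same transcript by spacing in nt, from 0 to 99 up to 400 to 1499: share of pairs with both, 1 or none listed (left, %) and median gap between the neighbours' score differences (right, score units, filled for the first and open for the second version). The first-version gap is 0.17 in the closest and 0.45 in the most widely spaced pairs.

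Members often shared their transcript with peaks elsewhere. A transcript-start peak was found on 962 of the 3494 transcripts (27.5%), a stop-codon peak on 1120 (32.1%), a 3' UTR peak on 620 (17.7%) and a 5' UTR peak on 238 (6.81%). On 1212 transcripts (34.7%) the members were the sole peaks. Members on those transcripts were weaker, with a median mean score of 1.66 against 2.02 elsewhere, yet 31.5% of them were listed (29.2% to 33.9%) against 27.1% (25.7% to 28.6%). Members with a stop-codon peak on the same transcript were listed in 26.0% and those without in 29.8%, while their median first-version differences were 0.26 and 0.24. With a start peak the shares were 28.4% and 28.5%.

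Compared on the same transcript, members had higher median score differences than start peaks and lower ones than stop-codon peaks. These were separate comparisons on sets of transcripts that overlapped in part, with 459 transcripts carrying both kinds of peak. On 962 transcripts with a start peak, the median first-version difference was 0.28 for members and -0.36 for start peaks. The member exceeded the start peak by a median of 0.64 (0.59 to 0.72) and was the higher one on 747 transcripts (77.7%, 74.9% to 80.2%). By first-version score the test-arm medians were close, at 2.13 and 2.22, whereas in the comparator arm members had 1.86 and start peaks 2.57. Thus the first-version medians lay apart by more in the comparator arm than in the test arm. By second-version score the arms differed in order instead. Members were higher in the test arm, with medians of 3.34 and 2.95, and lower in the comparator arm, with 2.58 and 3.02. The second version gave a median gap of 0.62 (0.53 to 0.69) and a higher member on 733 transcripts (76.2%).

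Against the stop-codon peak of the same transcript the order was the other way. On 1120 transcripts the median first-version difference was 0.26 for members and 0.51 for stop-codon peaks. The member was lower by a median gap of -0.19 (-0.25 to -0.12), and it was the higher one on 465 transcripts (41.5%, 38.6% to 44.5%). Here the first-version comparator-arm scores were close, with medians of 1.89 and 1.96. The test-arm scores were 2.15 for members and 2.45 for stop-codon peaks. Thus the first-version medians lay apart by more in the test arm than in the comparator arm. By second-version score the medians were 3.52 and 3.68 in the test arm and 2.80 and 2.69 in the comparator arm. On 620 transcripts with a 3' UTR peak, the median differences were 0.22 for members and 0.49 for the 3' UTR peaks. There members scored higher in both arms, with medians of 2.09 against 1.98 in the test arm and 1.83 against 1.52 in the comparator arm. On 238 transcripts with a 5' UTR peak, the median differences were 0.30 and 0.03.

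**Figure D5:**
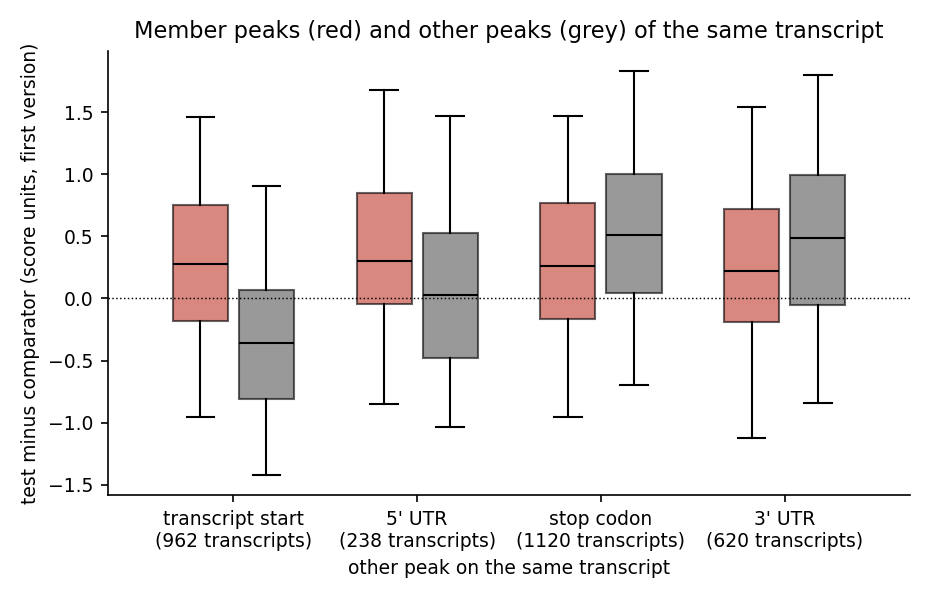
First-version test minus comparator difference (score units) of members (red) and of the other peaks of the same transcript (grey), averaged per transcript, for transcripts with a transcript-start, 5' UTR, stop-codon or 3' UTR peak. Boxes span the quartiles with the median as a line and whiskers reach the 5th and 95th percentiles, and the members' medians lie between 0.22 and 0.30 while those of the other peaks go from -0.36 to 0.51.

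In each class of other peak, a listed member was present more often where the other peak was listed too. Whether the classes differed in this was not tested. A listed member was present on 203 of the 519 transcripts whose stop-codon peak was listed (39.1%) and on 29.6% of the 601 whose stop-codon peak was not. For start peaks the shares were 48.7% of 76 and 33.9% of 886 transcripts. For 3' UTR peaks they were 34.1% of 273 and 28.8% of 347, and for 5' UTR peaks 47.2% of 53 and 34.6% of 185. The number of members on a transcript was not held fixed. A listed member was present on 706 of the 2415 transcripts with 1 member and on 314 of the 716 with 2. On 316 transcripts the stop-codon peak alone was listed and on 178 a member alone.

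The direction did not rest on a single chromosome. On the 20 chromosomes with at least 50 members, they made up between 12.2% and 18.5% of the peaks, their listed share ran from 21.4% on chromosome 12 to 33.7% on chromosome 13, and the median first-version difference was above 0 on each. On chromosome X, 37 of 162 members were listed (22.8%, 16.6% to 30.1%), against 23.0% of all peaks there. The median first-version difference on X, 0.44, was the highest of these chromosomes. On the second version the median was 0.58 on X, below 0.72 on chromosome 8. Autosomal members had 28.6% listed and a median first-version difference of 0.24.

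Single members are given from the 658 called in all 3 replicates of at least 1 arm, whose first-version differences ran from -1.79 to 3.38. Of these, the authors' deposited table gave the largest difference to the peak on transcript uc009tzt.2, at position 100759144 of chromosome X, 1405 nt into the transcript and -8 nt from the motif. Its scores in the authors' deposited table were 4.43 for test and 1.06 for comparator (unadjusted p = 0.0096), and 5.31 against 1.03 by the second version (unadjusted p = 0.0110), with a call in 3 test and 0 comparator replicates. The next in the authors' deposited table was on uc009rgm.1, at position 103230886 of chromosome 9, with scores of 2.47 and -0.69 (unadjusted p = 0.0825) and second-version scores of 0.37 and -1.50 (unadjusted p = 0.168), again called in 3 test and 0 comparator replicates. Both were listed, and both were higher in the test arm on each version.

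Among the same 658 members, the 2 most negative first-version differences were smaller in size than the 2 largest. Both peaks, chosen on the first version, differed less on the second. Over all 5127 members, first-version differences ran from -3.08 to 3.69. In the authors' deposited table the peak on uc011yjc.1, at position 120326723 of chromosome 11, scored 2.18 for test and 3.97 for comparator (unadjusted p = 0.0624), but 4.39 and 4.49 on the second version (unadjusted p = 0.816). It was called in 2 test and 3 comparator replicates. The authors' deposited table gave the peak on uc009dpc.1, at position 122273510 of chromosome 6, scores of 1.91 and 3.47 (unadjusted p = 0.124) and second-version scores of 4.10 and 4.40 (unadjusted p = 0.542), with a call in 1 test and 3 comparator replicates. Neither was listed. The highest mean score of all members was at position 58220219 of chromosome 3, 609 nt into its transcript and 1 nt from the motif, and the authors' deposited table gave that peak scores of 7.48 and 6.22 and a call in 0 test and 1 comparator replicates. The strongest member by score thus had a call in just 1 of the 6 replicates. These peaks were chosen for their extreme values, and no adjusted p of theirs was under 0.05.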

How the data were processed

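m6A-seq of LPS-activated mouse B cells was analysed from the authors' table of peaks and their METTL3-dependent list. Barcoded polyadenylated RNA went through 2 immunoprecipitations, per the labels' protocols. The submitters' processing notes name STAR, cutadapt, SAMtools 1.3.1, HTSeq and DESeq2, and the builds mm9 and mm10, without saying which step used which. Peak caller, score formula and test: not given in the sources used here. From the headers and values, the deposited columns were read as a peak score per arm (pooled), a score difference, an unadjusted p-value and a number (0 to 3) of replicates with a call. The headers themselves state neither the pooling, nor the lack of adjustment, nor that the numbers count replicates. Since 164 peaks lie past chromosome ends of GRCm38 and 13.6% of members fall in its GENCODE M21 exons, positions were taken as mm9.

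Members and comparison sets were chosen with earlier results of these data known. The p-values were adjusted by Benjamini-Hochberg over all peaks, and the rest was described by counts, medians and 95% intervals (exact binomial for shares, order statistics for medians, Newcombe for differences of shares). No test per library was possible, because scores are pooled per arm. Whether the replicates are separate mice is not in the labels, and the spread behind the p-values may be technical. Depth is unknown. Named peaks were the 2 largest and 2 most negative first-version differences among members called in all 3 replicates of an arm, plus the highest mean score and the transcripts with most members; the gene list planned beside them could not be used, since 0 of 3494 transcript identifiers matched the name tables. Peak strength means the first-version score averaged over both arms. On the same transcript, several peaks of a class were averaged. Alternatives were narrower motif windows, stricter p thresholds, single score versions and subsets of members. Python 3.11.15, numpy 2.4.6, pandas 2.3.3, scipy 1.17.1 and matplotlib 3.10.9 were used, and the computations were tested on simulated data.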

Additional observations from a re-analysis of the deposited data

How the results depend on the processing

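Of 86 alternative values for 11 results, 50 stayed inside the 95% interval of the reported value, or within 1.5 times of a count, and 36 moved. The sign turned for 1 result, the nearer against the farther part of the window, whose interval spans 0: it was -0.066 points with the strongest member of each transcript, -0.12 at p under 0.01 and -1.19 by the first score version alone. Values moved as follows, and the cause was not tested. With a motif window of 25 nt, 30.7% of members were listed, the median second-version difference was 0.60, and 25.6% and 16.7% were called in at least 2 test and comparator replicates. With the strongest member of each transcript, the opposite rule took 8.39%, and these call shares were 29.1% and 19.8%. Merging members closer than 100 nt gave 23.9% for the test arm. Above the median score of all peaks, 33.6% were listed, 8.62% met the opposite rule, the first-version difference was 0.27, the call shares were 42.1% and 30.8%, and the gap to start peaks was 0.73. Among members called in at least 2 replicates of either arm, 41.3% were listed, 10% met the opposite rule, the differences were 0.32 and 0.64, the nearer part exceeded the farther by 4.83 points, the call shares, which this choice raises by construction, were 82.7% and 54.7%, and the gaps to start and stop-codon peaks were 0.79 and -0.081.

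At p under 0.05, which takes fewer peaks by construction, 16.6% met the list rule and 4.06% its opposite, and the closest members exceeded the farthest by 6.64 points. At p under 0.01 these values were 4.17%, 0.624% and 2.22 points. The first score version alone gave 12.1%, 3.39% and 5.37 points. The second alone gave 22.1% listed and 1.58% opposite, and a gap to stop-codon peaks of -0.26. Taking p and direction from the same version, added after seeing the data like the set without scores of 0, gave 4.54% for the opposite rule. The closest against farthest comparison has no value with the 25 nt window. No paired analysis was possible because scores are pooled per arm, so no replicate block or leave-one-out value was computed. Depth per library is unknown.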
